A study of Mus musculus with 45 samples.

Results

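At E5.75, shortly after implantation, the mouse embryo is a short cylinder. The epiblast lies at one end, the extraembryonic ectoderm is joined to it, and the ectoplacental cone caps the other end and faces the uterus. Extraembryonic ectoderm holds trophoblast stem cells, which depend on FGF from the epiblast and on the transcription factors Cdx2, Eomes, Elf5 and Esrrb, and it sends Bmp4 back to the epiblast. Cells that leave it enter the ectoplacental cone, where they express Ascl2 and its neighbours and give rise to spongiotrophoblast and to trophoblast giant cells, which invade the decidua and secrete hormones of the prolactin family.

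The comparison is between 2 stretches of that axis within the E5.75 embryo. Sections 10, 11 and 12 represent extraembryonic ectoderm, and sections 17, 18 and 19 represent the ectoplacental cone end, with sections 14, 15 and 16 between them. The outer stretches were chosen by section number and make up 6 of the 45 samples of the series. The embryos were untreated, and were taken out of the decidua, frozen in embedding medium and sectioned. Pieces were cut out by laser capture, and Smart-seq2, which copies whole transcripts from few cells, gave the libraries. Neither strain nor genotype nor an embryo number is given in the labels. All 9 sections were taken to come from 1 embryo, so each p-value compares sections and not embryos. Neighbouring sections are not independent samples. Section 13 was not analysed here. The labels name no tissue for any section, so the tissue names were checked against marker genes. In tissue of this kind, fewer cells of a type and less RNA per cell cannot be told apart.

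Levels are given as log2(FPKM + 1), called the log2 level, where FPKM counts fragments relative to transcript length and library size and 0 means that a gene is listed at 0. A log2 difference is the mean log2 level of sections 10-12 minus that of sections 17-19, with its standard error, and a gene is called when its Benjamini-Hochberg adjusted p from limma is under 0.05. Between 6916 and 8217 of 13618 genes reached an FPKM of 1 in each section. The back-transformed values summed to 222956 to 229792 in sections 10-12, to 209997 to 235411 in sections 14-16 and to 260995 to 285460 in sections 17-19. Rn45s, the precursor of ribosomal RNA, made up 5.71 to 14.8% of that sum in sections 10-12, 5.43 to 13.4% in sections 14-16 and 2.88 to 7.85% in sections 17-19. Across 9967 genes, Pearson's r between sections was 0.76 to 0.82 within sections 10-12, 0.76 to 0.79 within sections 14-16 and 0.81 to 0.90 within sections 17-19.

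The markers fit the names of both ends in part. All 8 extraembryonic ectoderm markers were above 0 in sections 10-12. Their summed level was 247 to 393 FPKM in sections 10-12, 132 to 202 FPKM in sections 14-16 and 215 to 315 FPKM in sections 17-19, where only Sox2 was listed at 0 throughout. The sum therefore overlapped between the ends, and Elf5, Fgfr2 and Tfap2c were present at both. The 8 ectoplacental cone markers summed to 103 to 127 FPKM in sections 10-12, 348 to 698 FPKM in sections 14-16 and 1140 to 1510 FPKM in sections 17-19. In sections 10-12, the spongiotrophoblast marker Tpbpa and the placental gene Plac1 were listed at 0. Tpbpa had log2 levels of 2.83, 3.26 and 0 in sections 14, 15 and 16, and 0, 1.63 and 3.53 in sections 17, 18 and 19. It was therefore low in sections 17-19 and did not set them apart from sections 14-16.

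Of 9176 genes tested, 263 (2.87%) were called. There were 56 (0.61%) higher and 207 (2.26%) lower in sections 10-12 than in sections 17-19, and 1680 genes had an unadjusted p under 0.05. The shares of 0.61% and 2.26% are the background for each count of called list members below. The 3 values of one group lay wholly above those of the other in 742 genes (8.09%) higher and 1492 genes (16.3%) lower in sections 10-12. The direction of the bulk depended on scaling. The median log2 difference over all genes was -0.16 on the deposited scale, 0.09 after rescaling to a common sum without Rn45s and 0.04 after quantile normalization, and the split of calls became 76 higher and 103 lower, and 84 higher and 99 lower. Refitted without section 10, 11, 12, 17, 18 or 19, the calls numbered 209, 112, 134, 146, 42 or 44, of which 157, 95, 121, 122, 42 or 41 were among the 263. A set of 31 genes, 14 higher and 17 lower, was called in all 6 of those fits and under both scalings, and these are called the firm genes here.

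**Figure D1:**
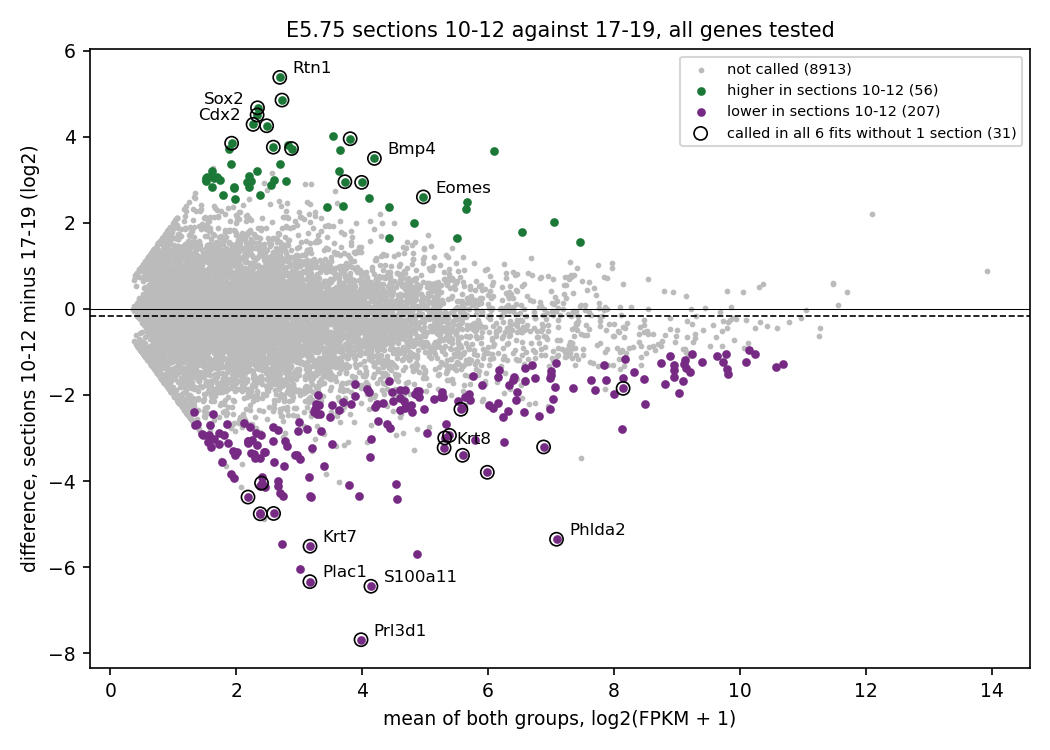
Each point is 1 of the 9176 genes tested, with the mean log2(FPKM + 1) of both groups on the x axis and the log2 difference, sections 10-12 minus 17-19, on the y axis. The 56 genes called higher in sections 10-12 are green, the 207 called lower are purple, rings mark the 31 genes called in all 6 fits without 1 section, and the dashed line is the median of all genes (-0.16).

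The genes that were higher in sections 10-12 included transcription factors of trophoblast stem cells and of the early embryo. Sox2 (chr3:34650405-34652461, mm10), a factor shared by pluripotent and trophoblast stem cells, had log2 levels of 4.98, 4.65 and 4.39 in sections 10, 11 and 12, 1.05, 0 and 0 in sections 14, 15 and 16, and 0 in each of sections 17, 18 and 19. It was thus high in sections 10-12 and nearly gone by section 14. The adjusted p from limma was 0.00309; for a gene listed at 0 in a whole group the fitted log2 difference, 4.67 ± 0.53 for Sox2, depends on the pseudocount and is not a bound.

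Cdx2 (chr5:147300805-147307270), which specifies trophoblast and keeps its stem cells, had log2 levels of 4.32, 4.49 and 4.43 in sections 10-12, 2.82, 2.73 and 0 in sections 14-16, and 0, 0.37 and 0 in sections 17-19. The groups did not overlap, and the middle sections split, with 14 and 15 between the ends and 16 at 0 (log2 difference 4.29 ± 0.53, adjusted p = 0.00435, limma). Eomes (chr9:118478212-118486132), a T-box factor needed for trophoblast stem cells, had log2 levels of 6.43, 6.19 and 6.20 in sections 10-12, 5.36, 4.58 and 4.36 in sections 14-16, and 4.18, 3.47 and 3.36 in sections 17-19. Eomes stepped down in every section along the axis except for a near tie at 11 and 12, and it was still present at the ectoplacental end (log2 difference 2.60 ± 0.36, adjusted p = 0.00667, limma).

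Esrrb, a nuclear receptor that sustains trophoblast stem cells under FGF, had log2 levels of 4.35, 3.73 and 2.73 in sections 10-12, 0, 0 and 0.11 in sections 14-16, and 0, 0.73 and 0 in sections 17-19. Its groups were apart and sections 14-16 already lay with the ectoplacental end (log2 difference 3.36 ± 0.63, adjusted p = 0.0203, limma). The call of Esrrb was lost without each of sections 10, 11, 17, 18 and 19, at adjusted p of 0.0566 to 0.0907. In all, 6 of the 27 tested genes of the extraembryonic ectoderm and trophoblast stem cell list were higher in sections 10-12, namely Sox2, Cdx2, Eomes, Bmp4, Esrrb and Duox2, and 1, Tfap2c, was lower. The list had a median log2 difference of 0.07, beside -0.16 over all genes tested. The higher count was 4 without sections 10, 11, 17, 18 or 19 and 5 without section 12.

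Most of that list did not separate the ends. Elf5, a factor often used to mark this tissue, had log2 levels of 5.23, 5.39 and 4.42 in sections 10-12, 5.21, 3.89 and 3.60 in sections 14-16, and 5.57, 5.80 and 5.62 in sections 17-19 (log2 difference -0.65 ± 0.36, adjusted p = 0.36, limma). Elf5 was therefore lowest in the middle of the axis. Fgfr2, the FGF receptor of trophoblast stem cells, lay between 3.44 and 4.50 on the log2 level in all 9 sections (log2 difference 0.43 ± 0.41, adjusted p = 0.63, limma). Zfp42, Wnt7b and Id2 were also not called, with log2 differences of -0.34, 0.75 and 0.06.

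Tfap2c (AP-2 gamma), a trophoblast factor listed with the stem cell genes, went the other way. It had log2 levels of 6.08, 5.91 and 5.83 in sections 10-12, 6.54, 6.20 and 6.39 in sections 14-16, and 7.66, 7.06 and 7.91 in sections 17-19. The groups did not overlap (log2 difference -1.60 ± 0.30, adjusted p = 0.0201, limma). The call was lost without each of sections 11, 12, 17 and 19 (adjusted p 0.0611 to 0.0938), after rescaling to a common sum (0.0694) and after quantile normalization (0.0914).

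Among BMP genes, the ligand Bmp4 stood out. Bmp4 (chr14:46383520-46390669), the ligand through which extraembryonic ectoderm induces germ cells and mesoderm in the epiblast, had log2 levels of 6.85, 5.96 and 5.02 in sections 10-12, 2.81, 2.32 and 0 in sections 14-16, and 2.63, 1.63 and 3.08 in sections 17-19. Within sections 10-12 it was highest in section 10, and the middle sections were no higher than the ectoplacental end (log2 difference 3.50 ± 0.55, adjusted p = 0.0102, limma). Smad6, an inhibitor of BMP signalling, had log2 levels of 4.10, 3.52 and 2.13 in sections 10-12, 1.98, 1.25 and 1.49 in sections 14-16, and 0.48, 0.27 and 0 in sections 17-19 (log2 difference 3.0 ± 0.66, adjusted p = 0.0384, limma). These were the 2 genes called among 21 tested BMP and Nodal genes. The list's median log2 difference was 0.10, against -0.16 over all genes. Without each of sections 10, 11, 17, 18 and 19 the Smad6 call was lost (adjusted p 0.0877 to 0.147) and Bmp4 was the 1 call left. The receptors Bmpr1a and Bmpr2 and the target genes Id1, Id2 and Id3 had log2 differences between -0.52 and 0.10, none of them called.

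Of 15 tested FGF and ERK genes, 11 had a positive log2 difference and Dusp6 alone was called. The list's median log2 difference was 1.19, against -0.16 over all genes. Dusp6, a phosphatase induced by ERK, had log2 levels of 3.47, 3.04 and 3.63 in sections 10-12, 1.65, 1.91 and 1.49 in sections 14-16, and 0.61, 1.06 and 0 in sections 17-19. The 3 stretches formed 3 steps that did not overlap (log2 difference 2.82 ± 0.59, adjusted p = 0.0313, limma). The Dusp6 call was lost when any 1 of the 6 sections was left out, at adjusted p of 0.0689 to 0.103. Spry4, another feedback inhibitor, had log2 levels of 3.70, 2.63 and 1.33 in sections 10-12, 0, 0.25 and 0 in sections 14-16, and 1.0, 0 and 0.29 in sections 17-19, and was not called (log2 difference 2.12 ± 0.71, adjusted p = 0.145, limma). Etv4 and Etv5, ETS factors induced by FGF, had log2 differences of 1.35 and 1.19 and were not called either.

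The largest differences toward sections 10-12 included genes outside these lists. Rtn1 (chr12:72211752-72409054), a reticulon of the endoplasmic reticulum known from neurons, had log2 levels of 4.87, 6.32 and 4.95 in sections 10-12, 4.84, 3.15 and 1.30 in sections 14-16, and 0 in all of sections 17-19 (fitted log2 difference 5.38 ± 0.56, adjusted p = 0.00232, limma). It declined step by step over sections 14, 15 and 16. Cyp26a1 (chr19:37697798-37701536), which degrades retinoic acid, had log2 levels of 5.86, 5.77 and 3.83 in sections 10-12, 3.0, 0 and 0 in sections 14-16, and 0.90, 0 and 0 in sections 17-19 (log2 difference 4.85 ± 0.65, adjusted p = 0.00633, limma). Pou3f1, a POU factor of epiblast and extraembryonic ectoderm, had log2 levels of 5.73, 5.91 and 5.71 in sections 10-12, 3.67, 3.75 and 2.48 in sections 14-16, and 2.93, 1.92 and 0.64 in sections 17-19 (log2 difference 3.96 ± 0.56, adjusted p = 0.00667, limma). Sox21, a SOX factor, and Efna4, a membrane ligand of Eph receptors, behaved similarly, with log2 differences of 4.26 ± 0.52 and 3.73 ± 0.56 (adjusted p = 0.00435 and 0.00807, limma). Both had their lowest values in sections 16 and 19. With a pseudocount of 0.1, a setting that did not enter the choice of firm genes, Efna4 was not called (adjusted p = 0.0616, limma).

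Socs2 (chr10:95385362-95417180), a suppressor of cytokine signalling, had log2 levels of 4.32, 3.56 and 3.68 in sections 10-12, 0.82, 0 and 0 in sections 14-16, and 0 in all of sections 17-19 (fitted log2 difference 3.85 ± 0.57, adjusted p = 0.00739, limma). Like Sox2 it was close to 0 from section 14 onward. Inpp1, an inositol polyphosphate phosphatase, Nat8l, which makes N-acetylaspartate, Oxct1, which lets cells use ketone bodies, and Bok, a member of the Bcl-2 family, complete the 14 firm genes, with log2 differences of 4.51 ± 0.55, 3.76 ± 0.51, 2.94 ± 0.42 and 2.96 ± 0.45. Dtx3, a Deltex family ubiquitin ligase, differed in shape. Its log2 levels were 5.77, 5.01 and 5.84 in sections 10-12, 5.28, 6.18 and 3.89 in sections 14-16, and 1.73, 2.84 and 0 in sections 17-19, so that sections 14 and 15 stayed at the level of sections 10-12 (log2 difference 4.02 ± 0.67, adjusted p = 0.0136, limma, and 0.0541 without section 12). The last of the 12 largest, Ranbp17, a nuclear transport receptor, had a log2 difference of 3.80 ± 0.70 (adjusted p = 0.0193, limma), which was not called without section 10, 11, 17 or 19 (0.0658 to 0.0938).

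**Figure D2:**
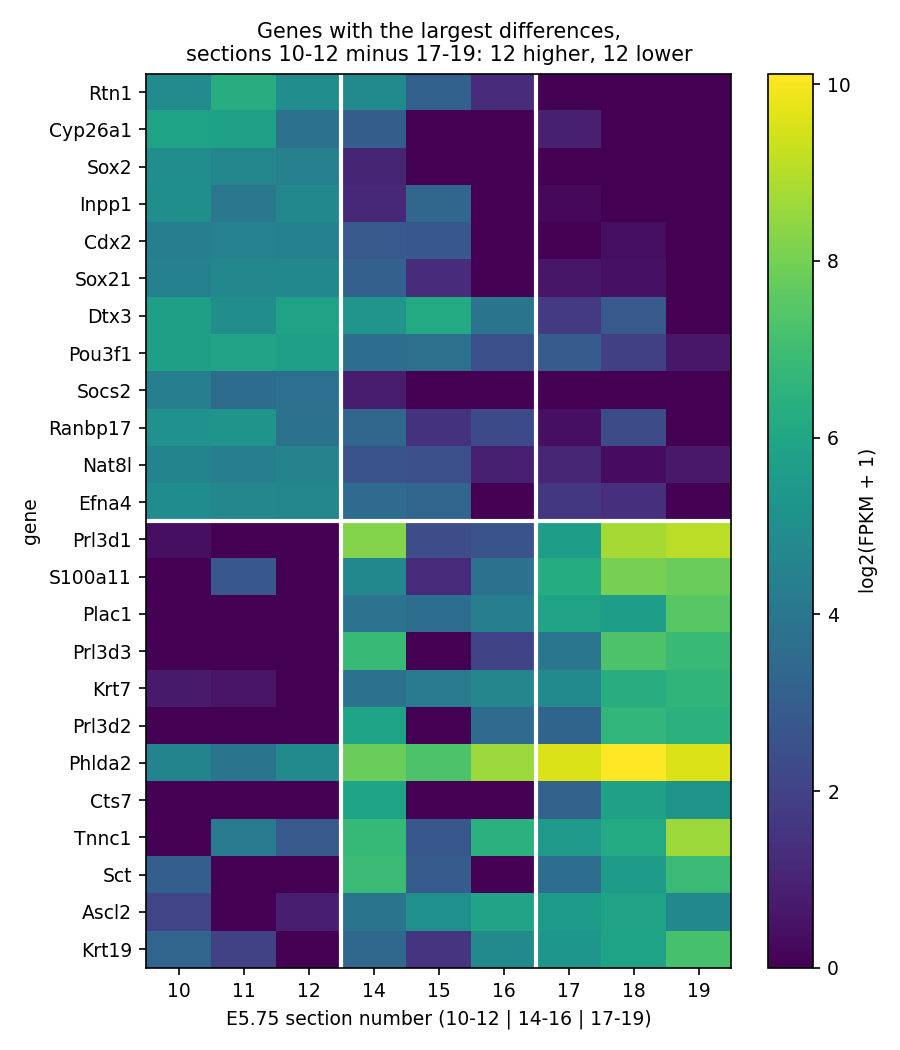
Colour gives log2(FPKM + 1) for the 12 genes with the largest log2 differences in each direction (rows) in the 9 sections (columns, in section order, white lines between the stretches). The upper 12 genes are bright in sections 10-12 and dark in sections 17-19, with Dtx3 bright also in section 15, and the lower 12 are brighter in sections 17-19 than in sections 10-12, with section 14 bright for Prl3d1, Prl3d2, Prl3d3, Cts7 and Sct.

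T, the Brachyury gene of primitive streak and mesoderm, and Wnt6, a WNT ligand, were also called higher. T, which lies outside the naming rule and was picked after its values were seen, had log2 levels of 3.62, 2.90 and 2.64 in sections 10, 11 and 12 and 0 in every section of 14-16 and 17-19 (adjusted p = 0.0206, limma, lost without section 11, 17, 18 or 19 at 0.0566 to 0.113). Wnt6 had log2 levels of 3.11, 2.97 and 3.05 in sections 10-12, 1.35, 2.49 and 0 in sections 14-16 and 0 in all of sections 17-19. It was the 1 called gene of 11 tested in the Wnt list (adjusted p = 0.0191, limma, lost without section 11, 17, 18 or 19 at 0.0515 to 0.104).

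The genes that were lower in sections 10-12 included the main markers of the ectoplacental cone. Of 18 tested genes in the ectoplacental cone and spongiotrophoblast list, 7 were lower in sections 10-12 and 0 higher, and the median log2 difference was -1.91, against -0.16 over all genes. Phlda2 (chr7:143501545-143503150), an imprinted gene that restrains placental growth, had the smallest p of all. Its log2 levels were 4.56, 3.88 and 4.80 in sections 10-12, 7.83, 7.30 and 8.59 in sections 14-16, and 9.58, 10.12 and 9.59 in sections 17-19. The 3 stretches made 3 separate steps (log2 difference -5.35 ± 0.32, adjusted p = 3.38e-05, limma).

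Plac1 (chrX:53069995-53240111), a trophoblast membrane protein, was listed at 0 in sections 10, 11 and 12, had log2 levels of 3.85, 3.65 and 4.32 in sections 14-16, and reached 5.84, 5.69 and 7.49 in sections 17-19 (adjusted p = 0.00111, limma). Ascl2 (chr7:142966829-142969264), the imprinted bHLH factor that ectoplacental cone cells need, had log2 levels of 2.13, 0 and 0.87 in sections 10-12, 3.88, 5.08 and 5.91 in sections 14-16, and 5.53, 5.82 and 4.71 in sections 17-19. Its values in sections 15 and 16 already overlapped those of sections 17-19 (log2 difference -4.36 ± 0.61, adjusted p = 0.00667, limma, and 0.056 without section 18). Hand1, a bHLH factor that promotes giant cell fate, was present at both ends, with log2 levels of 4.66, 5.27 and 4.82 in sections 10-12, 5.51, 4.77 and 6.74 in sections 14-16, and 6.71, 7.36 and 7.61 in sections 17-19 (log2 difference -2.31 ± 0.34, adjusted p = 0.00739, limma, and 0.052 and 0.0553 without section 18 or 19). The list count of 7 was 5 without section 11, 2 without section 18 and 3 without section 19.

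Among 22 tested imprinted genes of the placenta, 2 were lower, Phlda2 and Ascl2, and 0 higher, beside 2.26% lower and 0.61% higher over all genes. The median log2 difference was -0.69, against -0.16 over all genes. The count of 2 lower genes was 1 without section 18. Under either rescaling 2 were called lower and 1 higher. Meg3, an imprinted gene outside this count and listed jointly with microRNA genes, was called higher in sections 10-12. It was picked after its values were seen. Igf2 and H19, the linked growth factor and noncoding RNA, had log2 levels of 6.25 to 7.11 and 6.34 to 7.76 over the 9 sections and were not called.

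Among hormone and protease genes of trophoblast giant cells was Prl3d1, the named gene with the largest difference. Prl3d1, Prl3d2 and Prl3d3 encode placental lactogen I, which acts on the mother through the prolactin receptor, and lie next to each other on chromosome 13. Their promoters are printed because these genes moved together and because GATA and AP-1 factors are known to act on the mouse placental lactogen I gene. The lines give the RefSeq promoter windows in build GRCm38.p6, each 300 bases on the plus strand, with capitals on an AP-1 motif (TGANTCA on either strand) and on a GATA motif (the letters GATA with A or T before them and A or G after them, on either strand; here on the minus strand).
Prl3d1: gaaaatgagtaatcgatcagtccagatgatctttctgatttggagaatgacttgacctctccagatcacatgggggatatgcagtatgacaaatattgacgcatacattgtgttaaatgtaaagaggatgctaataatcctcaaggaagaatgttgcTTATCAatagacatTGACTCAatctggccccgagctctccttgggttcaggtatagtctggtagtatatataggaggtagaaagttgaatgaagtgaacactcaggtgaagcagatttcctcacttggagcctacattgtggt
Prl3d2: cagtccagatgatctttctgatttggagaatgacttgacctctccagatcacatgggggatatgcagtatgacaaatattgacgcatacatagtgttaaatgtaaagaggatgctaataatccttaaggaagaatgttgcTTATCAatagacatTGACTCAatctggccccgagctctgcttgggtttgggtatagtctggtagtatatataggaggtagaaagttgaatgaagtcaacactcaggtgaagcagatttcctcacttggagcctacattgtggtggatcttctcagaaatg
Prl3d3: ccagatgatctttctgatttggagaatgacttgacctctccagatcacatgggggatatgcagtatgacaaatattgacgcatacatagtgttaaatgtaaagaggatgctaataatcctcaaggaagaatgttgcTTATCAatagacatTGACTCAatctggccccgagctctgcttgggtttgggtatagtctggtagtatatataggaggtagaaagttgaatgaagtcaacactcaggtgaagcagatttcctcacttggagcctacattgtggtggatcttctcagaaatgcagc
The windows are at chr13:27093939-27094238, chr13:27121445-27121744 and chr13:27156544-27156843. Shifted by 17, 21 and 4 bases, Prl3d1 and Prl3d2 matched at 277 of 283 bases, Prl3d1 and Prl3d3 at 274 of 279, and Prl3d2 and Prl3d3 at 295 of 296. Each window held 1 AP-1 and 1 GATA match, with the AP-1 match starting 79, 96 and 100 bases before the annotated start. Of 32851 promoters in the table, 7.81% held the AP-1 motif, 29.8% a GATA motif and 2.97% both. A match of letters is a description of these windows and not a binding site. Because the 3 genes are near-identical, reads could be shared among them, and their separate levels are uncertain.

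Prl3d1 (chr13:27094190-27100258) had log2 levels of 0.41, 0 and 0 in sections 10-12, 8.22, 2.41 and 2.60 in sections 14-16, and 5.67, 8.75 and 9.06 in sections 17-19. Sections 17-19 were far above sections 10-12, and section 14 stood with sections 18 and 19 rather than with its neighbours (log2 difference -7.69 ± 0.76, adjusted p = 0.00226, limma). Prl3d3 was listed at 0 in sections 10-12, had log2 levels of 6.80, 0 and 2.08 in sections 14-16, and 3.98, 7.29 and 6.85 in sections 17-19 (adjusted p = 0.00517, limma, and 0.0547 without section 19). Prl3d2 was likewise at 0 in sections 10-12, with 5.87, 0 and 3.56 in sections 14-16 and 3.26, 6.66 and 6.47 in sections 17-19 (adjusted p = 0.00807, limma, and 0.0657 and 0.0777 without section 18 or 19).

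Cts7, a cathepsin of the placental cluster, was listed at 0 in sections 10-12, had log2 levels of 5.87, 0 and 0 in sections 14-16, and 3.21, 5.79 and 5.3 in sections 17-19 (adjusted p = 0.00739, limma, and 0.0631 and 0.0672 without section 18 or 19). Ctsl, a lysosomal cathepsin, was present throughout, with log2 levels of 4.48, 4.67 and 4.14 in sections 10-12, 6.25, 5.70 and 6.02 in sections 14-16, and 6.26, 6.64 and 7.29 in sections 17-19 (log2 difference -2.30 ± 0.36, adjusted p = 0.00998, limma, and 0.056 and 0.0589 without section 18 or 19). These 5 were the called members of 15 tested giant cell and placental secreted genes, and the list's median log2 difference was -2.30. The count of 5 was 2 without section 18 and 1 without section 19. Of the 5 giant cell markers, 3 were in the table, namely Prl3d1, Hand1 and Prl2c2. Prl2c2 did not follow the other 2. It was listed at 0 in sections 10-12, with log2 levels of 0, 0 and 1.36 in sections 14-16 and 1.26, 0 and 0 in sections 17-19. Gata2, a GATA factor of giant cells picked after its values were seen, had log2 levels of 0, 1.66 and 0 in sections 10-12, 2.14, 0.19 and 3.45 in sections 14-16, and 4.24, 4.73 and 5.52 in sections 17-19 (log2 difference -4.28 ± 0.63, adjusted p = 0.00739, limma, and 0.056 and 0.0672 without section 18 or 19). Gata3, its relative, had a log2 difference of -1.52 ± 0.38 and was not called (adjusted p = 0.0585, limma).

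Section 14 was high for many of these products. In 13 of the 15 giant cell genes it was above both section 15 and section 16, whereas this held for 3437 of all 9176 genes tested (37.5%); the count was made after the values were seen and is a description. The shape was not particular to this list, since it held also for 17 of 22 respiratory chain genes (77.3%), 6 of 8 decidual genes (75%) and 18 of 27 stem cell genes (66.7%). Sct, which encodes secretin, followed the same shape, with log2 levels of 3.03, 0 and 0 in sections 10-12, 6.91, 2.93 and 0 in sections 14-16, and 3.65, 5.56 and 6.92 in sections 17-19. It was called (log2 difference -4.36 ± 0.95, adjusted p = 0.0377, limma) but not without section 11, 12, 18 or 19 (0.115 to 0.161). Over all genes, section 14 had a Pearson's r of 0.84 with both section 17 and section 18, and of 0.79 and 0.78 with sections 15 and 16. Sections 15 and 16 were also closest to section 17, each with an r of 0.81. This was not particular to the middle, since section 11 was closest to section 17 too, with an r of 0.82. Sections 10 and 12 had an r of 0.80 and 0.77 with section 17. Between the outer stretches r was 0.67 to 0.82.

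**Figure D3:**
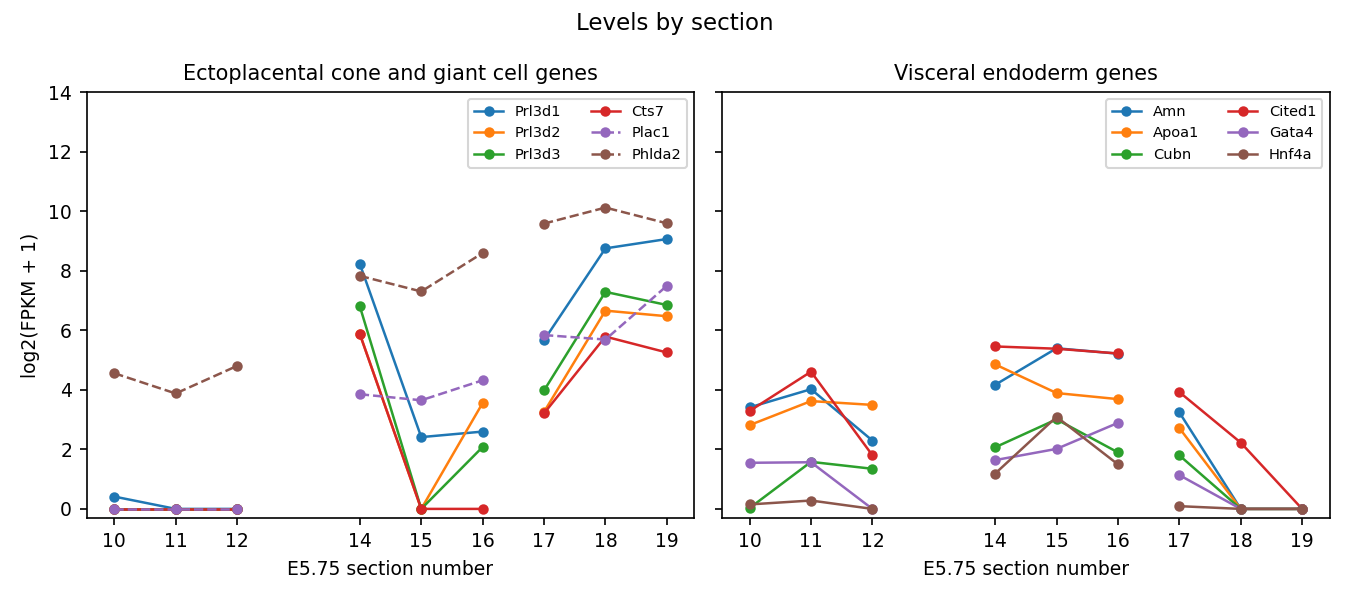
The y axis is log2(FPKM + 1) and the x axis the section number, with lines joining sections of the same stretch. On the left, Prl3d1, Prl3d2, Prl3d3 and Cts7 are at or near 0 in sections 10-12, high in section 14, low in section 15 and high again in sections 18 and 19, while Plac1 and Phlda2 (dashed) form steps. On the right, 6 visceral endoderm genes are mostly higher in sections 14-16 than in sections 10-12, and at 0 in section 19. In sections 10-12 Hnf4a is at or near 0, Cubn is near 0 in section 10 and Gata4 is at 0 in section 12.

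Epithelial keratins, which form the intermediate filaments of trophoblast, were lower in sections 10-12 as a group. All 4 tested keratins were called, with a median log2 difference of -3.79. Krt7 (chr15:101411043-101430313) had log2 levels of 0.73, 0.51 and 0 in sections 10-12, 3.82, 4.14 and 4.59 in sections 14-16, and 4.86, 6.32 and 6.61 in sections 17-19 (log2 difference -5.52 ± 0.56, adjusted p = 0.00232, limma). Krt8 had log2 levels of 4.28, 3.14 and 3.65 in sections 10-12, 4.99, 5.35 and 5.94 in sections 14-16, and 6.24, 7.07 and 7.44 in sections 17-19 (log2 difference -3.23 ± 0.42, adjusted p = 0.00566, limma). Both stepped up over the 3 stretches without overlap. Krt18, the partner of Krt8, was abundant everywhere and had a log2 difference of -1.53 ± 0.32 (adjusted p = 0.0325, limma), and Krt19 one of -4.36 ± 0.77 (adjusted p = 0.0173, limma). The 4 calls were 3 under either rescaling and without section 10 or 12, and 2 without section 11, 18 or 19. Without section 11, 18 or 19 the Krt19 call was lost (0.0543 to 0.104), and the Krt18 call was lost also without section 10 or 12 (0.0583 to 0.145).

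S100a11 (chr3:93520488-93526287), an S100 calcium-binding protein, had log2 levels of 0, 2.75 and 0 in sections 10-12, 4.71, 1.23 and 3.80 in sections 14-16, and 6.26, 8.03 and 7.79 in sections 17-19 (log2 difference -6.45 ± 0.75, adjusted p = 0.00343, limma). Of 19 tested actin cytoskeleton genes, all 19 had a negative log2 difference and 6 were called lower, beside 2.26% of all genes tested. Their median was -1.38, against -0.16 over all genes, and under either rescaling 4 were called. Tpm1, a tropomyosin, had log2 levels of 5.01, 3.92 and 3.87 in sections 10-12, 5.94, 5.19 and 6.18 in sections 14-16, and 6.54, 7.50 and 7.92 in sections 17-19 (log2 difference -3.05 ± 0.44, adjusted p = 0.0069, limma, and 0.0623 without section 19). Without section 11, 12, 18 or 19 the count of 6 was 2, 4, 1 or 0. Tnnc1, the cardiac and slow muscle troponin C, was called (log2 difference -4.42 ± 1.01, adjusted p = 0.0431, limma) but not without section 10, 12, 17, 18 or 19 (0.0689 to 0.174).

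The other firm genes of this end that are named here were mixed in kind, and the rest of the 17 are not named. Lgals1, a galectin, had log2 levels of 3.42, 3.73 and 5.12 in sections 10-12, 6.20, 4.35 and 6.10 in sections 14-16, and 7.28, 8.30 and 8.08 in sections 17-19 (log2 difference -3.80 ± 0.46, adjusted p = 0.00435, limma). Fth1, the ferritin heavy chain that stores iron, Ass1, an enzyme of arginine synthesis, Sdc4, a syndecan, and Cd63, a lysosomal and exosomal tetraspanin, had log2 differences of -3.21 ± 0.45, -3.0 ± 0.42, -2.33 ± 0.31 and -1.85 ± 0.26. For these 4 the adjusted p from limma lay between 0.00566 and 0.00667, and section 15 was the lowest of sections 14-16 in each. They were chosen for naming after their values were seen.

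Smaller lists gave few calls, beside 2.26% lower and 0.61% higher over all genes tested. In lists of 6 to 21 genes, 1 or 2 calls are not read as a trait of the list. Lower in sections 10-12 were 1 of 21 junction and adhesion genes (the integrin Itga7), 2 of 16 protease and inhibitor genes (the cathepsin Ctsd and the protease inhibitor Spint1), 2 of 14 S100 and annexin genes (S100a11 and Anxa2), 1 of 6 steroid and prostaglandin genes (Hpgd, which breaks down prostaglandins) and 1 of 10 parietal endoderm genes (the repressor Snai1). Among 14 immediate early and stress genes, Ier3 was higher and Klf6 lower in sections 10-12. Apart from S100a11, each of these calls was lost without section 18 and without section 19 (adjusted p 0.0938 to 0.192) and also without at least 1 of sections 10, 11, 12 and 17 (0.0509 to 0.129). The parietal endoderm list was mixed, with 7 negative and 3 positive log2 differences. Without section 17, 1 of its 7 tested genes was called higher and 0 lower. The marker Thbd went the way of Snai1. Pth1r went the other way, with 4.73, 4.20 and 4.73 in sections 10-12 and 4.66, 0.13 and 0.13 in sections 17-19. The 6 markers of that tissue summed to 40.3 to 49.8 FPKM in sections 10-12 and 33.9 to 64.3 FPKM in sections 17-19. None of 10 angiogenic genes, 8 cyclin D and cyclin-dependent kinase inhibitor genes or 15 fatty acid genes was called by limma. Of these, 3, 2 and 4 had an unadjusted p under 0.05, against 1680 of all 9176 genes tested. Under either rescaling 1 fatty acid gene was called higher.

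**Figure D4:**
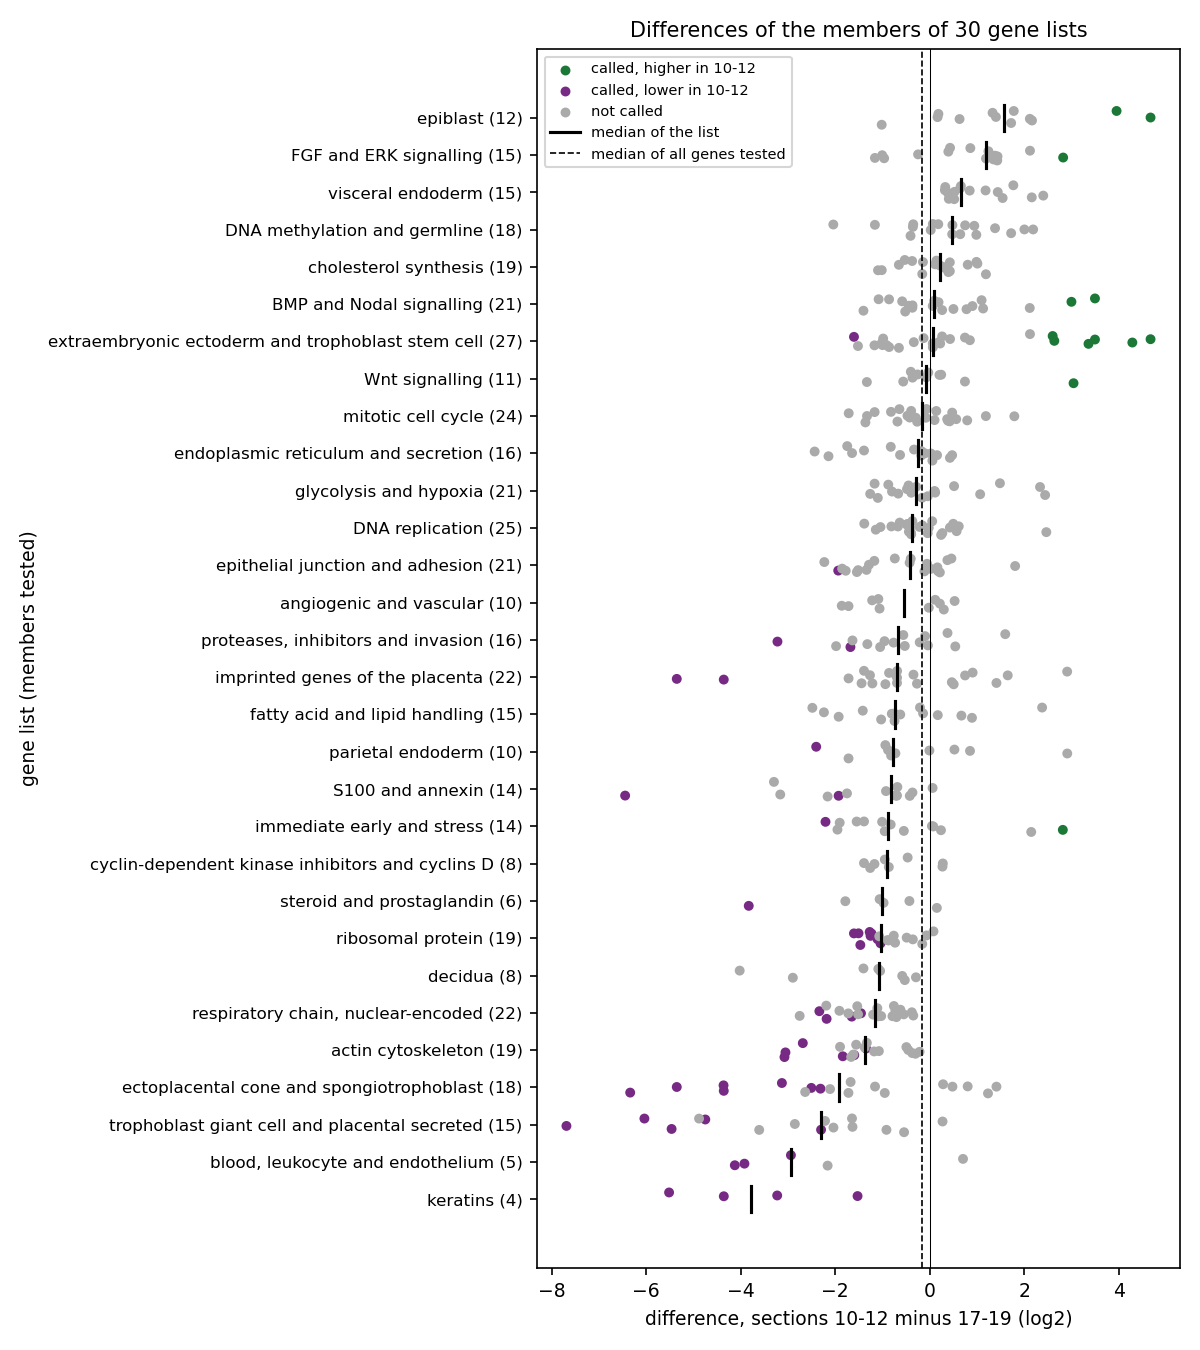
Points are the tested members of the 30 gene lists that had any (rows, ordered by median, with the number tested), placed by log2 difference, sections 10-12 minus 17-19; green and purple mark called members, short bars the median of each list and the dashed line the median of all genes. Keratins, the blood, leukocyte and endothelium list, and giant cell and ectoplacental cone genes lie furthest to the left, with medians of -3.79, -2.94, -2.30 and -1.91, and the epiblast and FGF lists furthest to the right, with medians of 1.56 and 1.19.

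The calls in housekeeping lists depended on the scale. Of 19 tested ribosomal protein genes 9 were called lower in sections 10-12, with a median log2 difference of -1.04, but 2 were called after rescaling to a common sum (median -0.67) and 1 after quantile normalization (median -0.22). Rps14, for example, had log2 levels of 9.24, 8.82 and 9.12 in sections 10-12, 9.69, 8.59 and 9.26 in sections 14-16, and 10.40, 10.78 and 10.51 in sections 17-19 (log2 difference -1.51 ± 0.22, adjusted p = 0.00739, limma, lost without section 11, 18 or 19 at 0.0506 to 0.0589). Without section 10, 11, 12, 17, 18 or 19 the count of 9 was 4, 0, 2, 5, 0 or 0. Ribosomal protein genes also have many near-identical pseudogenes, so their levels are uncertain. For 22 nuclear-encoded respiratory chain genes, all with a negative log2 difference and a median of -1.15, the count was 4, against 2 and 1 under the rescalings, and 4, 1, 2, 3, 0 or 0 with a section left out in the same order. The Rn45s share ran opposite to these lists, at 5.71 to 14.8% in sections 10-12 and 2.88 to 7.85% in sections 17-19. These ranges overlapped, and the part of Rn45s in the lists was not tested.

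The lists of proliferation and central metabolism did not separate the ends at the threshold. Outside these lists single genes were called, such as Oxct1 higher and Cenpn and Idh2 lower in sections 10-12. None of 24 mitotic genes, 25 DNA replication genes, 21 glycolysis and hypoxia genes, 19 cholesterol synthesis genes or 16 endoplasmic reticulum genes was called, and their median log2 differences were -0.17, -0.37, -0.29, 0.22 and -0.25. After rescaling to a common sum these medians were 0.18, -0.02, 0.06, 0.45 and 0.11, and 1 glycolysis and hypoxia gene was called higher after quantile normalization. Of the genes in these 5 lists, 20 of 105 had an unadjusted p under 0.05, a share near that over all genes tested (1680 of 9176). Ldha, which makes lactate, came near, with log2 levels of 7.27, 7.74 and 7.46 in sections 10-12, 8.22, 7.63 and 8.36 in sections 14-16, and 8.67, 9.07 and 8.22 in sections 17-19 (log2 difference -1.17 ± 0.28, adjusted p = 0.053, limma). Hells and Dnmt3b, which act in DNA methylation, had positive log2 differences, 1.38 ± 0.34 and 1.72 ± 0.45 (adjusted p = 0.0537 and 0.0697, limma). None of 18 DNA methylation and germline genes was called on the deposited scale (6 at an unadjusted p under 0.05), and 2 were called higher under either rescaling.

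Genes of other tissues varied along the axis too. Of 12 tested epiblast genes 2 were called higher in sections 10-12, Sox2 and Pou3f1, which extraembryonic ectoderm also expresses, and 3 were under either rescaling. The list had 11 positive log2 differences and a median of 1.56. Members at 0 in sections 17-19, such as Sox2 and Pou5f1, could be tested only through sections 10-12, which sets their sign. Otx2, a defining epiblast factor, was listed at 0 in all 9 sections. Pou5f1 had log2 levels of 3.70, 0 and 2.66 in sections 10-12, 0, 1.37 and 0 in sections 14-16 and 0 in sections 17-19. Nanog and Utf1, by contrast, were present in all 9 sections, at log2 levels of 3.63 to 5.33 and 2.20 to 5.70. The 8 epiblast markers, with Sox2 not among them, summed to 131 to 187 FPKM in sections 10-12, 47.8 to 130 FPKM in sections 14-16 and 71.8 to 86.6 FPKM in sections 17-19, and the part of epiblast cells in the results was not tested.

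Visceral endoderm is the layer that covers extraembryonic ectoderm but not the cone. Its 10 markers summed to 26.8 to 56.3 FPKM in sections 10-12, 95.2 to 136 FPKM in sections 14-16 and 0 to 33.5 FPKM in sections 17-19. Amn, a subunit of the cubilin receptor, had log2 levels of 3.41, 4.02 and 2.30 in sections 10-12, 4.17, 5.39 and 5.21 in sections 14-16, and 3.24, 0 and 0 in sections 17-19 (log2 difference 2.16 ± 0.90, adjusted p = 0.234, limma). Apoa1, an apolipoprotein, had log2 levels of 2.81, 3.62 and 3.49 in sections 10-12, 4.85, 3.89 and 3.69 in sections 14-16, and 2.72, 0 and 0 in sections 17-19 (adjusted p = 0.132, limma). Section 17 therefore still held endoderm transcripts, and sections 18 and 19 held almost none. All 15 tested visceral endoderm genes had a positive log2 difference, with a median of 0.66, and none was called (2 at an unadjusted p under 0.05). A gene was tested only with an FPKM of 1 or higher in at least 2 sections. All 10 markers but Cited1 were at 0 in sections 18 and 19, so such genes could pass mainly through sections 10-12. The shared sign was thus largely set by the filter and is a description.

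Markers of maternal tissue were present in part. The 5 decidual markers in the table summed to 0 to 19 FPKM in sections 10-12, 1.79 to 79.5 FPKM in sections 14-16 and 19.7 to 183 FPKM in sections 17-19, while Dcn, which decidual stroma expresses abundantly, was listed at 0 in all 9 sections. The decidual sums did not overlap between the ends, but the highest of sections 10-12 (19 FPKM, section 10) lay just below the lowest of sections 17-19 (19.7 FPKM, section 17). In sections 17-19 Prl8a2 was the highest of these markers, and the others did not separate the ends. Hoxa10 was listed at 0 at both ends and Col1a1 reached a log2 level of at most 0.43. Hand2 overlapped, with 2.36, 0.37 and 0 in sections 10-12 and 0.18, 1.19 and 3.10 in sections 17-19. The 3 blood and leukocyte markers in the table summed to 0 to 32.3 FPKM in sections 10-12, 11.4 to 33.8 FPKM in sections 14-16 and 9.27 to 43.9 FPKM in sections 17-19, and overlapped between the ends; Tyrobp, a leukocyte adaptor, was listed at 0 in sections 17-19. Prl8a2, the decidual prolactin-related protein, had log2 levels of 3.99, 0.87 and 0 in sections 10-12, 6.17, 0.67 and 4.37 in sections 14-16, and 4.36, 5.10 and 7.46 in sections 17-19 (log2 difference -4.02 ± 1.01, adjusted p = 0.0591, limma). It was high in section 14 as the giant cell genes were. Of 5 tested blood, leukocyte and endothelium genes, 3 were called lower in sections 10-12 (2 under either rescaling), and the median log2 difference was -2.94. Cd52, a leukocyte surface antigen, was listed at 0 in sections 10-12, had 0, 0 and 2.0 in sections 14-16 and 3.67, 3.12 and 4.98 in sections 17-19 (adjusted p = 0.0121, limma, and 0.0547 without section 19). Cdh5, an endothelial cadherin, had log2 levels of 0, 0.96 and 0 in sections 10-12, 2.82, 0.42 and 2.74 in sections 14-16 and 2.97, 4.47 and 5.89 in sections 17-19 (adjusted p = 0.0191, limma, lost without section 12, 18 or 19 at 0.0569 to 0.103). Pecam1, an adhesion molecule of endothelium and leukocytes, was at 0 in sections 10-12 and had 1.98, 2.61 and 4.22 in sections 17-19 (adjusted p = 0.0474, limma, lost without any 1 of the 6 sections at 0.0594 to 0.14). The count of 3 was 1 without section 12 or 18 and 0 without section 19. The part of decidual, blood or endothelial cells in the genes of the cone end was not tested.

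Sections 14-16 lay between the ends for most called genes. Setting the mean of sections 10-12 to 1 and that of sections 17-19 to 0, the mean of sections 14-16 fell between them for 49 of the 56 higher genes, with a median position of 0.37, and for 193 of the 207 lower genes, with a median position of 0.61. The sections did not form an even ramp. For the higher genes the median positions were 0.48, 0.48 and 0.19 in sections 14, 15 and 16, and for the lower genes 0.43, 0.87 and 0.46. By these medians section 15 was nearest to sections 10-12 for the lower genes, and section 16 nearest to sections 17-19 for the higher genes. The outer groups fix the end values of this scale, so the positions describe the middle sections only.

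**Figure D5:**
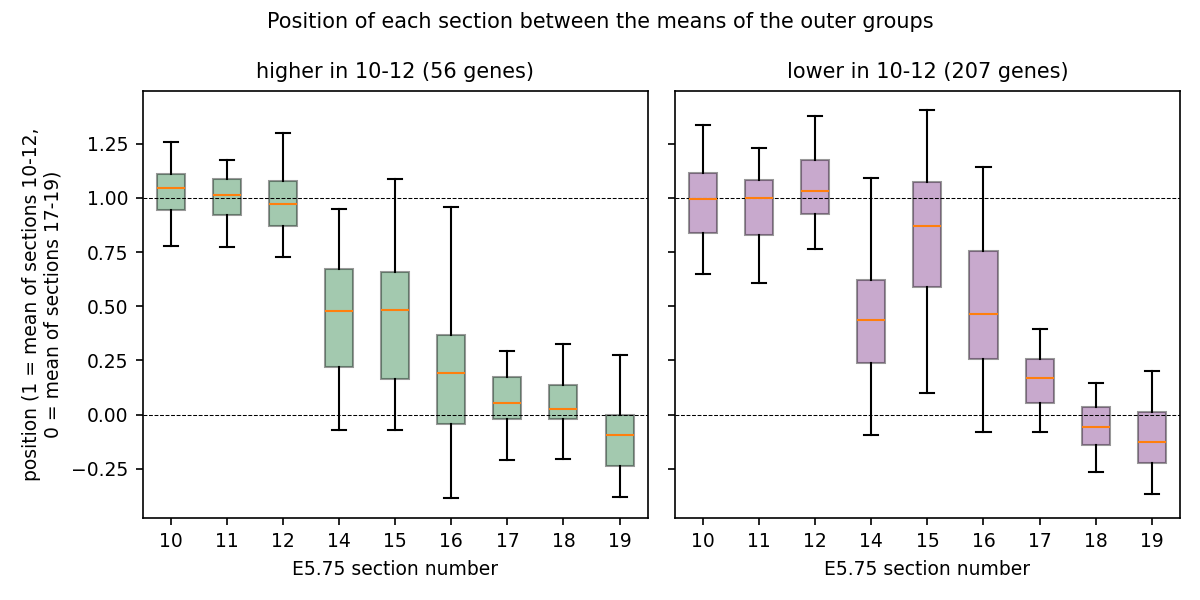
Boxes give the median and quartiles, and whiskers the 5th and 95th percentiles, of the position of each section on a scale where 1 is the mean of sections 10-12 and 0 that of sections 17-19, for the 56 genes called higher in sections 10-12 (left) and the 207 called lower (right). For the higher genes section 16 has a median of 0.19, near the cone end, and for the lower genes section 15 has a median of 0.87, near sections 10-12.

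Tested over all 9 sections with a shared spread, few genes separated the middle from either end. Against sections 14-16, sections 10-12 differed in 6 of 9967 genes (0.0602%). Sox2 and Socs2 (0.0201%) were higher in sections 10-12, with log2 differences of 4.33 ± 0.58 and 3.58 ± 0.57 (adjusted p = 0.013 and 0.0402, limma). Phlda2, Plac1, Krt7 and Ascl2 (0.0401%) were lower in sections 10-12, with log2 differences of -3.50, -3.94, -3.77 and -3.96 (adjusted p = 0.00196, 0.013, 0.0158 and 0.0402, limma). The 6 became 10 without section 14 and 1 without section 15 or without section 16. Between sections 14-16 and sections 17-19, 0 of 9967 genes (0%) were called by limma, although 1161 had an unadjusted p under 0.05 and the smallest adjusted p was 0.155. Without section 14 that count was 1, and without section 17 it was 7. These comparisons share sections with the main one. Fasl, the Fas ligand, was picked after its values were seen. It had the smallest p of the last comparison, with log2 levels of 0, 1.37 and 0 in sections 10-12, 0.19, 0 and 0.79 in sections 14-16 and 3.98, 4.14 and 4.93 in sections 17-19, so that it was high at the cone end and not in the middle.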

How the data were processed

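Whole-transcript RNA-seq (Smart-seq2) of laser-captured E5.75 mouse embryo sections was analysed in 9 of 19 columns of the deposited table. The authors deposited FPKM on a log2 scale, per the table's name and values. Since the lowest value is 0, a pseudocount of 1 was taken to be in them. The normalization step is not given in the sources used here. TopHat2 2.0.4, Cufflinks 2.0.2 and build mm10 are listed in the submitters' processing notes. The table holds no counts and the depth of each section is unknown. A gene was tested if 2 or more of the fitted sections had an FPKM of 1 or higher. Genes near 0 at 1 end could pass through the other end alone, which sets the sign of their difference. The 2-sided test was limma 3.58.1 in R 4.3.3, with a trended eBayes prior, a pseudocount of 1 and a Benjamini-Hochberg threshold of 0.05. The outer groups were fitted alone, 3 sections each, and the comparisons with sections 14-16 used all 9 sections. Differences are on the log2(FPKM + 1) scale, which understates the change of low genes. The 12 genes with the largest difference each way were named among called genes with a mean FPKM of at least 5 in the higher group and no overlap, leaving out gene models, as were up to 4 called members of each list or, where fewer than 2 were called, the 2 with the smallest p. Other uncalled genes, apart from tissue markers, were picked after their values were seen. The sections and the 31 gene lists were chosen with earlier results of these data known. The list of mitochondrially encoded genes had no member in the table. Alternatives were other pseudocounts and filters, rescaling to a common sum or by quantiles, other settings of eBayes, detected genes as a covariate, a line over 9 sections, and each section left out, when the group's other sections are assumed to vary like the rest; the gene-by-gene counts over those fits were added after seeing the data. The fits were tested on simulated data. Promoters are from RefSeq, build GRCm38.p6, and gene coordinates from GENCODE on mm10. Python 3.11.15 and matplotlib 3.10.9 made the figures.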

Additional observations from a re-analysis of the deposited data

How the results depend on the processing

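Without a section, sections 10-12 against 17-19 gave 42 to 209 calls, sections 10-12 against 14-16 gave 1 to 10, and sections 14-16 against 17-19 gave 0 to 7. For sections 10-12 against 17-19 the 263 calls were 138 with a pseudocount of 0.1, 80 with no filter, 109 with eBayes without trend and 166 with a line over 9 sections; the other settings gave 179 to 319. For sections 10-12 against 14-16 the 6 calls were 3 with a pseudocount of 0.1, 3 with no filter, 10 with an FPKM of 1 in 3 sections, and 11 after either rescaling, by a common sum (11) or by quantiles (11). Sections 14-16 against 17-19 gave 0 in every setting with all sections in. For the 55 called genes among those named by the rule, 263 of 990 gene-by-setting values lost the threshold; for the other 26, 21 of 464 gained it, and none was reversed. The cause of these changes was not tested, except that no filter adds genes to the adjustment and leaving out a section removes a sample. No paired analysis was possible because the section numbers are positions and the groups compared share none. Values were taken to come from 1 embryo, which the labels do not state, and genes at 0 in a group may be below detection.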
